A study of Mus musculus with 8 samples.

Results

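The mitochondrial carriers of the Slc25 family were followed in mouse small intestinal organoids, which are gut epithelial structures grown in Matrigel from intestinal crypts. They were chosen by name and by signal. Every gene whose RefSeq symbol is Slc25a followed by a number was looked up through the accession of its probe, and it was kept if its sample channel was well above background on both arrays of at least 1 group. Of 47 such genes with a RefSeq entry, 45 had a probe and 39 were kept, out of 19287 genes kept in all. Where a kept gene had more than 1 probe, the brightest was used. Slc25a18, Slc25a21, Slc25a31, Slc25a43 and Slc25a54 were not well above background on any array and Slc25a41 was on 1, so these 6 have no fold change here, and Slc25a34 and Slc25a53 are not analysed here.

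The organoids came from 2 separately established wild-type lines, each grown for 6 days in 4 media, which gave 8 arrays. The media held 1 mM valproic acid (VPA, an inhibitor of histone deacetylases), 3 µM CHIR99021 (an inhibitor of the kinase GSK3, which raises Wnt signalling), both compounds at those doses, or neither (control). Each array carried cRNA of 1 such culture in Cy5 and cRNA of control organoids of the same line in Cy3, without a dye swap, so a control array sets control RNA against control RNA. Values are log2 ratios of Cy5 over Cy3, given for line 1 and then line 2. A fold change is the mean ratio of a treatment minus that of the control arrays, ± its standard error (SE) from a limma fit over all genes. "Rose" and "fell" mark a Benjamini-Hochberg adjusted p under 0.05 over the 19287 genes.

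Slc25 carriers sit mostly in the inner mitochondrial membrane, where each exchanges or imports a small molecule that cannot cross by itself: ADP for ATP, phosphate, acylcarnitines, amino acids, tricarboxylic acid intermediates, nucleotides, cofactors or iron. They link the reactions of the matrix to those of the cytosol. In the absorptive cells of the gut they serve fat oxidation, the malate-aspartate shuttle and the ornithine steps of citrulline formation, among other routes. Slc25a20, the carnitine/acylcarnitine carrier, brings long-chain acyl groups into the matrix for oxidation.

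Between 59.4% and 63.2% of the 45018 spots were well above background in Cy5 on each array, and 0 spots were saturated. All 9 epithelial markers examined (such as Epcam and Vil1) were well above background on all 8 arrays. Of 12 fibroblast, muscle and endothelial markers 4 were, while Dcn, Lum, Pecam1 and Cdh5 were on no array; of 8 blood and immune markers 3 were. The control arrays show the size of dye and handling differences: over the 39 carriers their log2 ratios had an SD of 0.152 in line 1 and 0.142 in line 2, against 0.491 to 0.843 on the treated arrays. All comparisons with control use the same 2 control arrays, so a deviation there enters each of them. RNA of a whole culture was measured, in which fewer cells of a type and less RNA per cell cannot be told apart.

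VPA raised 4 of the 39 carriers and lowered none (10.3%, where 10.7% of all genes passed, 6.54% upward and 4.2% downward). Those 4 were Slc25a4, Slc25a20, Slc25a12 and Slc25a14, and the share called was about that of all genes. CHIR99021 raised none and lowered Slc25a45 and Slc25a15 (5.13%, where 1.06% of all genes passed, 0.109% upward and 0.949% downward). Both compounds together raised 6 and lowered 4 (25.6%, where 15.5% of all genes passed, 8.41% upward and 7.1% downward). The carriers that rose were the 4 that rose with VPA, joined by Slc25a29 and Slc25a48, and those that fell were Slc25a45, Slc25a35, Slc25a15 and Slc25a32. Slc25a48 was kept only through the arrays with VPA, where it is high, so its rise is in part a result of the selection, and 5 carriers rose without it. Most carriers moved little: 33 of 39 with VPA, 31 with CHIR99021 and 26 with both stayed within 0.5 of 0 on the log2 scale. The median carrier changed by 0.08 with VPA, where the median of all genes was 0.00, by -0.03 with CHIR99021 (all genes 0.01), and by 0.07 with both (all genes 0.01).

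The counts depended on how the 2 lines were treated. With the line, which is also the slide, as a block in the fit, 10 carriers passed with VPA (8 rose, 2 fell), 5 with CHIR99021 (1 rose, 4 fell), 14 with both compounds and 3 (all fell) when CHIR99021 was added to VPA. The shares of all genes grew as well, to 19.3% with VPA (10.8% upward, 8.48% downward), 2.86% with CHIR99021 (0.399% upward, 2.46% downward), 25% with both compounds (13.3% upward, 11.8% downward) and 3.16% when CHIR99021 was added to VPA (0.581% upward, 2.58% downward). Leaving out either control array left 1 in that group. Fewer carriers then passed in each comparison with control, and so did fewer of all genes. The same held for CHIR99021 against control without either CHIR99021 array. Centring each array on its median in place of loess gave 4 carriers up and 1 down with VPA, where 853 of all genes rose and 258 fell. With both compounds it gave 8 carriers up and 2 down, where 1361 of all genes rose and 738 fell.

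**Figure D1:**
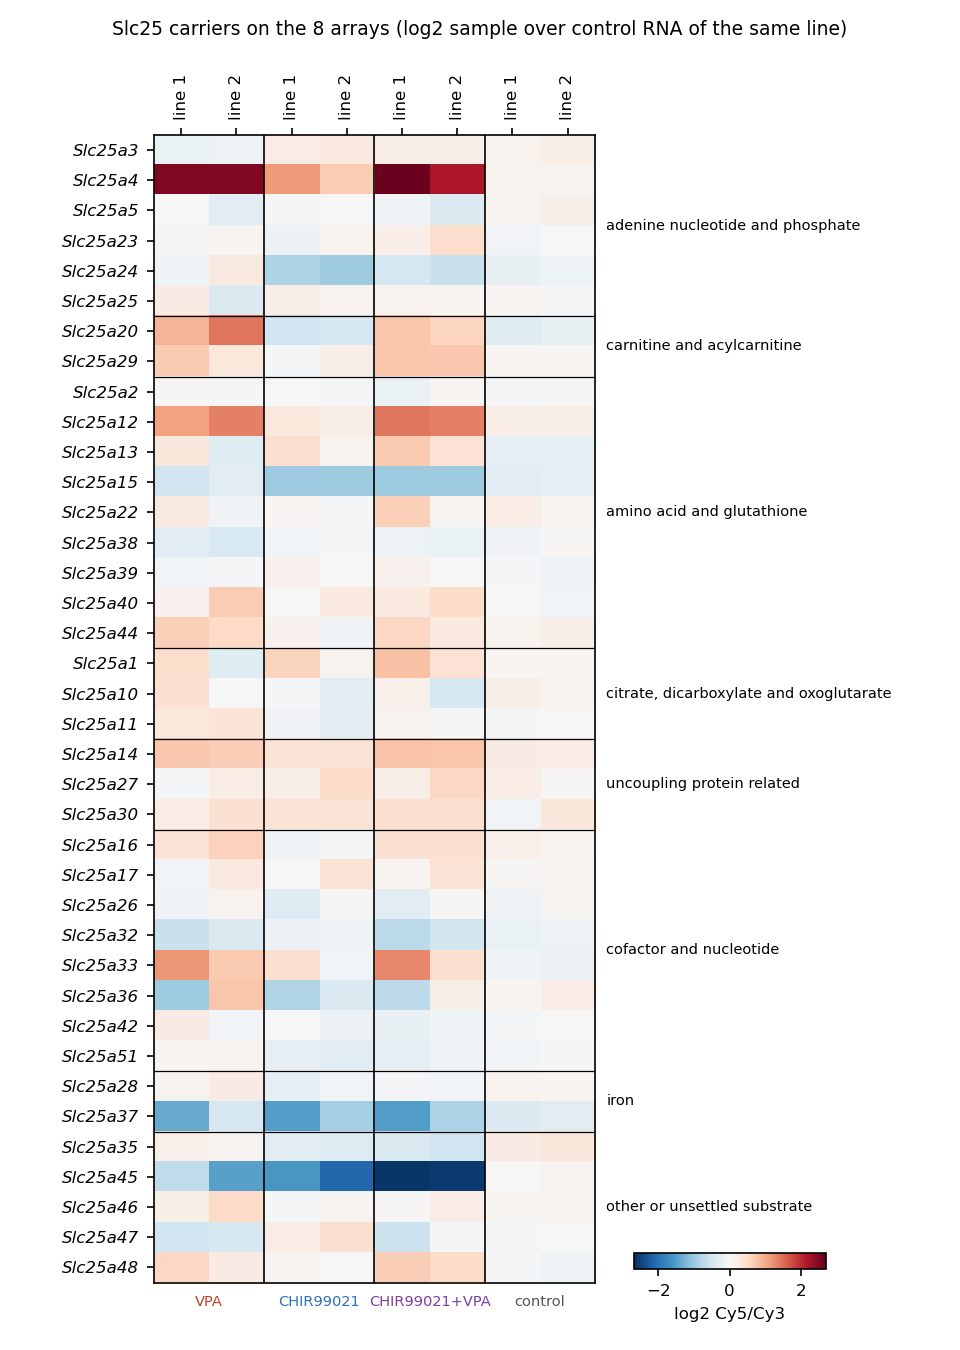
Log2 ratio of Cy5 (sample) over Cy3 (control RNA of the same line) of 38 of the 39 carriers on the 8 arrays. Rows are carriers in substrate groups, with Slc25a29 placed beside Slc25a20 under carnitine and acylcarnitine. Columns are arrays, 2 lines per medium. Slc25a4 reached 2.65 and Slc25a45 reached -2.63, both with CHIR99021 and VPA in line 1, while most rows are pale in every column.

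Slc25a4 showed the largest increase. It encodes the ADP/ATP carrier that is most abundant in heart and muscle, while Slc25a5 encodes a widely expressed, near-identical form of the same carrier. Slc25a4 stood at 2.51 and 2.50 on the VPA arrays, 1.16 and 0.68 on the CHIR99021 arrays and 2.65 and 2.18 with both compounds, against 0.11 and 0.07 on the control arrays. The VPA-containing arrays did not overlap with the others, and both CHIR99021 arrays lay above both control arrays. It rose 5.34-fold with VPA (log2 2.42 ± 0.20, adjusted p = 0.0021) and 5.0-fold with both compounds (2.32 ± 0.20, adjusted p = 0.00144). With CHIR99021 its change of 0.83 ± 0.20 did not pass (adjusted p = 0.141), although it did with the line as a block (adjusted p = 0.0436). A second Slc25a4 probe gave 2.31 with VPA, 0.77 with CHIR99021 and 2.27 with both.

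Slc25a5 did not share this pattern. Its ratios were 0.00 and -0.31 with VPA, -0.03 and 0.01 with CHIR99021 and -0.09 and -0.38 with both compounds, against 0.08 and 0.15 on the control arrays. Its fold changes of -0.27 ± 0.14, -0.13 ± 0.14 and -0.35 ± 0.14 did not pass (adjusted p = 0.293, 0.812 and 0.154). Within each line the log2 change of Slc25a4 exceeded that of Slc25a5 by 2.48 and 2.89 with VPA, by 1.16 and 0.75 with CHIR99021 and by 2.71 and 2.63 with both compounds, differences that were not tested. The coding sequences of these genes are alike, and how far their probes cross-hybridise was not tested. The local background of the Slc25a5 spot was flagged as an outlier on 4 arrays.

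Promoter windows of this pair are shown because the changes of the genes differed although their products are near-identical. Each runs from 250 bases before to 50 after the RefSeq start of the gene (GRCm38.p6), written 5′ to 3′ on the strand of the gene, with matches to the searched motifs in capitals. Slc25a4 lies at chr8:46211013-46211312 (minus strand) and Slc25a5 at chrX:36795347-36795646 (plus strand).
Slc25a4: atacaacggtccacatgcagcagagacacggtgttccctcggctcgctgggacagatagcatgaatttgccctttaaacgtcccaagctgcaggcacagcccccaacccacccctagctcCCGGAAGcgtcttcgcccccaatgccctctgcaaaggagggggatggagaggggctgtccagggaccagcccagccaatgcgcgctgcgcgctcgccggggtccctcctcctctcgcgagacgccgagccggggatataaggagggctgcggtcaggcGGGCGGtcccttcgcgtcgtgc
Slc25a5: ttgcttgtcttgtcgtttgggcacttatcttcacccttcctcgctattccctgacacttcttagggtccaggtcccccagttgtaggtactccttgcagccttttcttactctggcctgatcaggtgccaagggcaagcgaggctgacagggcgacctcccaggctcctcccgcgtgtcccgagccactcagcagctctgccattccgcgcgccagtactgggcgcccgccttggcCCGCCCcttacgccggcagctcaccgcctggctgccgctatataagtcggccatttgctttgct
The motifs searched on both strands were GGGCGG (GC box), CCGGAAG (ETS site), CACGTG (E-box), AGGTCA (nuclear receptor half-site), the direct repeat AGGTCANAGGTCA, which holds the half-site, and CTTTGATC (TCF site). The Slc25a4 window held 1 ETS site, 130 bases before the start, and 1 GC box, and the Slc25a5 window 1 GC box. A match is a run of letters, not a shown binding site.

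Other carriers of adenine nucleotides and phosphate stayed closer to 0. Slc25a3, the phosphate carrier that supplies ATP synthase, stood at -0.19 and -0.13 with VPA, 0.20 and 0.27 with CHIR99021 and 0.18 and 0.15 with both, against 0.10 and 0.15 on the control arrays. Its VPA change of -0.28 ± 0.08 did not pass (adjusted p = 0.0864). Slc25a24, a calcium-regulated carrier of ATP-Mg and phosphate, stood at -0.84 and -0.97 with CHIR99021, against -0.20 and -0.15 on the control arrays. That change of -0.73 ± 0.14 passed with the line as a block (adjusted p = 0.0476) but not without it (adjusted p = 0.0709), and a second probe gave -0.32. Slc25a23 and Slc25a25, of the same subgroup, changed by 0.35 or less in size in each comparison with control, and of these changes only that of Slc25a23 with both compounds passed with the line as a block (adjusted p = 0.0433, against 0.139 without).

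Slc25a20, the carnitine/acylcarnitine carrier, rose 2.73-fold with VPA (log2 1.45 ± 0.17, adjusted p = 0.00594). Its ratios were 0.93 and 1.44 with VPA, -0.53 and -0.47 with CHIR99021 and 0.76 and 0.59 with both compounds, against -0.33 and -0.19 on the control arrays. All 4 arrays with VPA lay above 0 and all 4 without it below. With both compounds it rose 1.91-fold over control (0.94 ± 0.17, adjusted p = 0.0153) and 2.26-fold over CHIR99021 (1.17 ± 0.17, adjusted p = 0.012). CHIR99021 by itself changed it by -0.24 (95% interval -0.65 to 0.17), which did not pass. Among 19 alternatives the VPA call was lost only when a control array was left out, and the log2 fold change stayed between 1.18 and 1.70.

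The promoter window of Slc25a20 is shown because this carrier rose with VPA in both lines. It lies at chr9:108661886-108662185 (plus strand) and held 3 GC boxes and, 79 bases before the start, 1 ETS site.
Slc25a20: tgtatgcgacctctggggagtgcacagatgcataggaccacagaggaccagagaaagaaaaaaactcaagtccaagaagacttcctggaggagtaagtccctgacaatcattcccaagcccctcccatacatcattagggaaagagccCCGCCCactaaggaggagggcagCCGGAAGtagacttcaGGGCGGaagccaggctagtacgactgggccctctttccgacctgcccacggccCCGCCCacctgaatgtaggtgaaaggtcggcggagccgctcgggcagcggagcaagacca

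Slc25a29 is a carrier of basic amino acids that was first described as carnitine-like. It stood at 0.70 and 0.28 with VPA, -0.04 and 0.18 with CHIR99021 and 0.75 and 0.73 with both compounds, against 0.06 and 0.06 on the control arrays. With VPA the lines differed and the change of 0.43 ± 0.15 did not pass (adjusted p = 0.13). It rose 1.60-fold with both compounds over control (0.68 ± 0.15, adjusted p = 0.0285) and 1.60-fold over CHIR99021 (0.68 ± 0.15, adjusted p = 0.0401). The call over control was lost under 4 of 19 alternatives, and that over CHIR99021 under 10 of 18, among them the mean of its probes. The second Slc25a29 probe gave 0.20 with VPA and 0.54 with both compounds.

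Genes that work with Slc25a20, the carnitine shuttle and the first steps of mitochondrial fatty acid oxidation, were examined as a list of 15 measured genes. The list was chosen with earlier results of these data known, so its counts beside those of all genes are no independent test. With VPA 7 rose and none fell, where 6.54% of all genes rose and 4.2% fell, and the list median was 0.62 (all genes 0.00). They included Crot (1.24 ± 0.11, adjusted p = 0.00275), which moves medium-chain groups onto carnitine, and Cpt2 (0.93 ± 0.11, adjusted p = 0.00541), which returns acyl groups from carnitine to coenzyme A. Hadha (0.71 ± 0.09) and Hadhb (1.39 ± 0.17), the subunits of the trifunctional protein, rose as well (adjusted p = 0.00669 and 0.0069). With CHIR99021 none passed, the median was -0.37 and 14 of 15 values were negative, and 3 fell with the line as a block. With both compounds Cpt1a (0.66 ± 0.15) and Hadha (0.38 ± 0.09) rose over control and Crat fell by 0.66, where 8.41% of all genes rose and 7.1% fell, and the median was 0.03. Relative to VPA, adding CHIR99021 lowered 4 of the 15: Cpt2 by 1.13, Crot by 0.97, Acadvl by 0.86 and Crat by 1.14 (adjusted p = 0.017, 0.0234, 0.0355 and 0.0361), where 1.02% of all genes fell. Slc25a20 itself changed by -0.51 ± 0.17 in that comparison and did not pass (adjusted p = 0.256).

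Slc25a12 and Slc25a13 exchange aspartate for glutamate in the malate-aspartate shuttle, Slc25a13 being the form that prevails in liver. Slc25a12 stood at 1.08 and 1.36 with VPA, 0.27 and 0.18 with CHIR99021 and 1.42 and 1.35 with both compounds, against 0.17 and 0.15 on the control arrays. Every array with VPA lay above every array without it. It rose 2.08-fold with VPA (1.06 ± 0.11, adjusted p = 0.0045), 2.34-fold with both compounds over control (1.23 ± 0.11, adjusted p = 0.00175) and 2.24-fold with both over CHIR99021 (1.16 ± 0.11, adjusted p = 0.00372). CHIR99021 by itself changed it by 0.07 (95% interval -0.21 to 0.34).

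Slc25a13 stood at 0.30 and -0.34 with VPA, 0.46 and 0.11 with CHIR99021 and 0.71 and 0.39 with both compounds, against -0.27 and -0.23 on the control arrays. Its VPA change was 0.23 ± 0.23 (adjusted p = 0.595), with opposite signs of the ratio in the 2 lines. With both compounds the change of 0.80 ± 0.23 did not pass (adjusted p = 0.0635), and did with the line as a block (adjusted p = 0.0126). The log2 change of Slc25a12 exceeded that of Slc25a13 by 0.33 and 1.31 with VPA and by 0.27 and 0.59 with both, and was below it by 0.63 and 0.30 with CHIR99021, which was not tested.

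The promoter window of Slc25a12 (chr2:71367706-71368005, minus strand) is shown as that of a carrier that rose with VPA and held none of the 6 motifs, which says only that these letters are not in this window.
Slc25a12: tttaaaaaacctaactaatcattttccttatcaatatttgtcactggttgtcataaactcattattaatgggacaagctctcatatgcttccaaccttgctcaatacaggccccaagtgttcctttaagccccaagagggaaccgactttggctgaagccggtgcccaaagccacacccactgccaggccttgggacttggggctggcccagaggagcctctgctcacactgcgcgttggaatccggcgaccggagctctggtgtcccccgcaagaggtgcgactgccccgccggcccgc

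Slc25a15, the ornithine carrier of the urea cycle, fell with CHIR99021 and with both compounds. It stood at -0.54 and -0.27 with VPA, -0.98 and -0.95 with CHIR99021 and -0.97 and -0.96 with both, against -0.30 and -0.27 on the control arrays. The 4 arrays with CHIR99021 agreed within 0.03 and lay below the 4 without it. It fell 1.60-fold with CHIR99021 (-0.68 ± 0.11, adjusted p = 0.0469) and 1.60-fold with both compounds (-0.68 ± 0.11, adjusted p = 0.00904). VPA changed it by -0.12 ± 0.11, which did not pass. The CHIR99021 call was lost under 11 of 19 alternatives, among them a background model fitted on all spots, where the change was -0.29 (adjusted p = 0.855).

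Without the block, none of the remaining carriers of amino acids and glutathione passed in a comparison with control. Slc25a44, a carrier of branched-chain amino acids, stood at 0.65 and 0.53 with VPA, 0.11 and -0.09 with CHIR99021 and 0.57 and 0.27 with both compounds, against 0.10 and 0.18 on the control arrays. Its VPA change of 0.45 ± 0.13 passed only with the line as a block (adjusted p = 0.0343, against 0.0779 without). Slc25a38, which supplies glycine for haem synthesis, changed by -0.32 ± 0.10 with VPA (adjusted p = 0.0836). Slc25a39, a glutathione importer, stayed within 0.13 of 0 on every array.

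Of the 3 tricarboxylic acid carriers kept, none passed. Slc25a11, which carries oxoglutarate for the malate-aspartate shuttle, stood at 0.28 and 0.35 with VPA, -0.09 and -0.31 with CHIR99021 and 0.09 and -0.06 with both compounds, against -0.05 and -0.02 on the control arrays (VPA change 0.35 ± 0.11, adjusted p = 0.0953). Slc25a1, the citrate carrier that feeds fatty acid synthesis, was unequal between lines: 0.48 and -0.32 with VPA, against 0.05 and 0.06 on the control arrays. Of the 3 relatives of the uncoupling proteins, Slc25a14 rose. It stood at 0.72 and 0.66 with VPA, 0.37 and 0.34 with CHIR99021 and 0.78 and 0.74 with both compounds, against 0.22 and 0.20 on the control arrays. These values are small and close between lines: the rise was 1.40-fold with VPA (0.48 ± 0.08, adjusted p = 0.017) and 1.47-fold with both compounds (0.55 ± 0.08, adjusted p = 0.00722). The call with VPA was lost under 5 of 19 alternatives, and that with both compounds under 2, the removal of either control array. The uncoupling protein Ucp2, a family member under another symbol, did not pass in any comparison, nor did Mtch1 or Mtch2, although 1 of these 3 rose with VPA and 1 with both compounds when the line was a block, and Ucp1 and Ucp3 were well above background on no array.

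**Figure D2:**
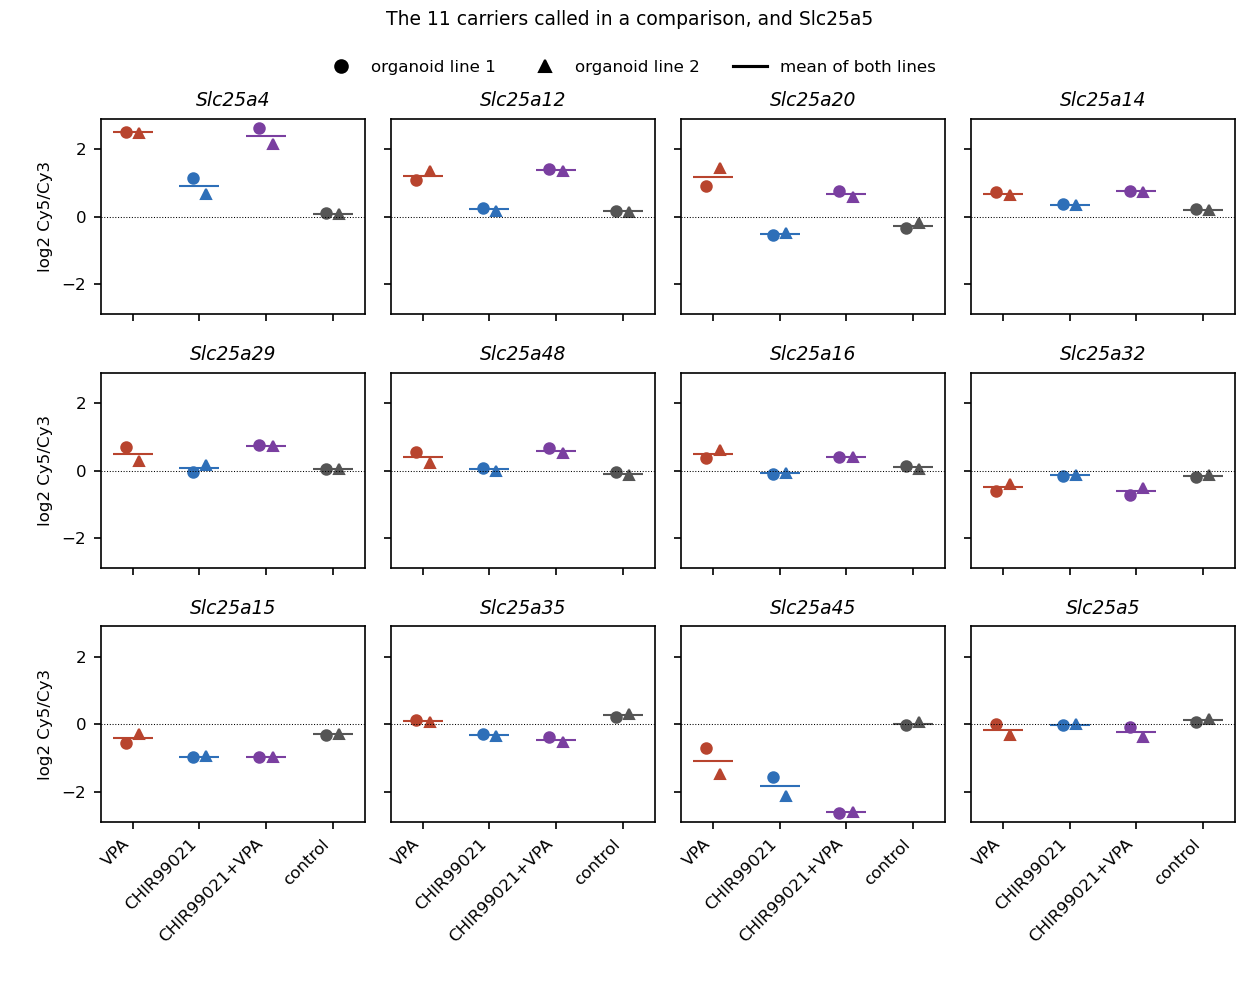
Log2 ratio of Cy5 over Cy3 (vertical axis) on each array for the 11 carriers that passed in at least 1 comparison and for Slc25a5, by medium, with line 1 as circles, line 2 as triangles and the mean of both as a bar. Slc25a12 and Slc25a20 lie higher on the 4 arrays with VPA, Slc25a15 lies lower on the 4 arrays with CHIR99021, and Slc25a45 is lowest with both compounds.

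Among the 9 carriers of cofactors and nucleotides, Slc25a32 fell with both compounds. This carrier of folates and flavin adenine dinucleotide stood at -0.60 and -0.40 with VPA, -0.16 and -0.12 with CHIR99021 and -0.72 and -0.50 with both compounds, against -0.18 and -0.14 on the control arrays. It fell 1.37-fold with both over control (-0.45 ± 0.11, adjusted p = 0.0424) and 1.39-fold with both over CHIR99021 (-0.47 ± 0.11, adjusted p = 0.0486). Its VPA change of -0.34 ± 0.11 passed with the line as a block (adjusted p = 0.048, against 0.118 without). Each Slc25a32 call was lost under 10 alternatives.

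Slc25a33 and Slc25a36 carry pyrimidine nucleotides. Slc25a33 stood at 1.20 and 0.71 with VPA, 0.44 and -0.07 with CHIR99021 and 1.29 and 0.44 with both compounds, against -0.09 and -0.17 on the control arrays. Line 1 lay above line 2 in each medium, and the VPA change of 1.08 ± 0.31 passed only with the line as a block (adjusted p = 0.00955, against 0.0786 without). The same held with both compounds (0.99 ± 0.31, adjusted p = 0.00837 with the block and 0.0802 without), and a second probe gave 0.87 and 0.81. Slc25a36 differed between the lines, at -0.96 and 0.76 with VPA, -0.81 and -0.38 with CHIR99021 and -0.71 and 0.17 with both compounds, against 0.05 and 0.19 on the control arrays. Its SE of 0.55 in each comparison with control was the largest of the 39 carriers.

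Slc25a16, linked to coenzyme A in the matrix, stood at 0.36 and 0.62 with VPA, -0.11 and -0.06 with CHIR99021 and 0.41 and 0.40 with both compounds, against 0.13 and 0.06 on the control arrays. It rose 1.40-fold when VPA was added to CHIR99021 (0.49 ± 0.11, adjusted p = 0.0381), a call lost under 10 of 18 alternatives (adjusted p up to 0.174). Against control it passed only for VPA with the line as a block (0.40 ± 0.11, adjusted p = 0.0417, against 0.0639 without). The iron carrier Slc25a37, mitoferrin 1, stood at -1.37 and -0.46 with VPA, -1.48 and -0.93 with CHIR99021 and -1.51 and -0.85 with both compounds, against -0.39 and -0.27 on the control arrays. All treated arrays lay below the control arrays, with line 1 lower than line 2 throughout. The changes were -0.58 ± 0.35, -0.87 ± 0.35 and -0.85 ± 0.35, and only the last passed with the line as a block (adjusted p = 0.0165, against 0.164 without). Slc25a28, mitoferrin 2, changed by at most 0.22 in size against control. The second Slc25a37 probe gave -0.48, -0.31 and -0.40.

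Slc25a45, whose substrate is not taken as settled here, showed the largest decrease. It stood at -0.69 and -1.46 with VPA, -1.57 and -2.12 with CHIR99021 and -2.63 and -2.59 with both compounds, against -0.02 and 0.06 on the control arrays. The 4 groups did not overlap, with the lowest values under both compounds. It fell 3.65-fold with CHIR99021 (-1.87 ± 0.27, adjusted p = 0.0399) and 6.21-fold with both compounds (-2.63 ± 0.27, adjusted p = 0.00228). The VPA change of -1.10 ± 0.27 had an adjusted p of 0.0508, and 0.0189 with the line as a block. Adding CHIR99021 to VPA changed it by -1.54 ± 0.27 (adjusted p = 0.0623, and 0.0242 with the block). The call with both compounds was kept under all 19 alternatives, and that with CHIR99021 was lost under 8 of them.

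Slc25a35 stood at 0.14 and 0.06 with VPA, -0.28 and -0.35 with CHIR99021 and -0.39 and -0.53 with both compounds, against 0.23 and 0.32 on the control arrays. The 4 arrays with CHIR99021 lay below 0 and the 4 without it above. It fell 1.66-fold with both compounds (-0.73 ± 0.10, adjusted p = 0.00505), by more on the log ratios of the scanner software (-1.53), and by less when the treated ratio was set against 0 (-0.46). With CHIR99021 its change of -0.59 ± 0.10 had an adjusted p of 0.0514, and 0.0286 with the line as a block.

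The promoter window of Slc25a45 (chr19:5877572-5877871, plus strand) is shown as that of the carrier that fell furthest. It held 1 GC box and 1 nuclear receptor half-site, 50 bases before the start.
Slc25a45: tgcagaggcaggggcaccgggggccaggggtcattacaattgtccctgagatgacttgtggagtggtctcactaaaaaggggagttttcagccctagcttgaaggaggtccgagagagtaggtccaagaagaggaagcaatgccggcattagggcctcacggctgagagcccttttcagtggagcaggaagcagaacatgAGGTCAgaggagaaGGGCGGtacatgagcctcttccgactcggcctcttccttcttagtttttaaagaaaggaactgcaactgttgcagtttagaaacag

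Slc25a48, reported as a carrier of choline, was well above background only on the 4 arrays with VPA, so it entered the set through them and its difference follows in part from how members were chosen. It stood at 0.56 and 0.23 with VPA, 0.07 and 0.00 with CHIR99021 and 0.66 and 0.52 with both compounds, against -0.05 and -0.14 on the control arrays. On these ratios it rose with both compounds over control (0.68 ± 0.13, adjusted p = 0.0171) and over CHIR99021 (0.55 ± 0.13, adjusted p = 0.0447), while the VPA change of 0.48 ± 0.13 did not pass (adjusted p = 0.063, and 0.0191 with the line as a block). Its level in the control and CHIR99021 groups is not measured above background, so the size of these changes is uncertain. Slc25a47 stood at -0.53 and -0.43 with VPA, 0.20 and 0.41 with CHIR99021 and -0.58 and -0.04 with both compounds, against -0.05 and 0.00 on the control arrays, and its VPA change of -0.46 ± 0.18 did not pass (adjusted p = 0.169).

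A further 11 carriers passed in no comparison. Their changes with VPA ran between -0.06 (Slc25a22) and 0.44 (Slc25a40), those with CHIR99021 between -0.28 (Slc25a10) and 0.24 (Slc25a30), and those with both compounds between -0.26 (Slc25a10) and 0.41 (Slc25a40). They are Slc25a2, Slc25a10, Slc25a17, Slc25a22, Slc25a26, Slc25a27, Slc25a30, Slc25a40, Slc25a42, Slc25a46 and Slc25a51. Slc25a2, a relative of the ornithine carrier, was well above background on 7 of 8 arrays.

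**Figure D3:**
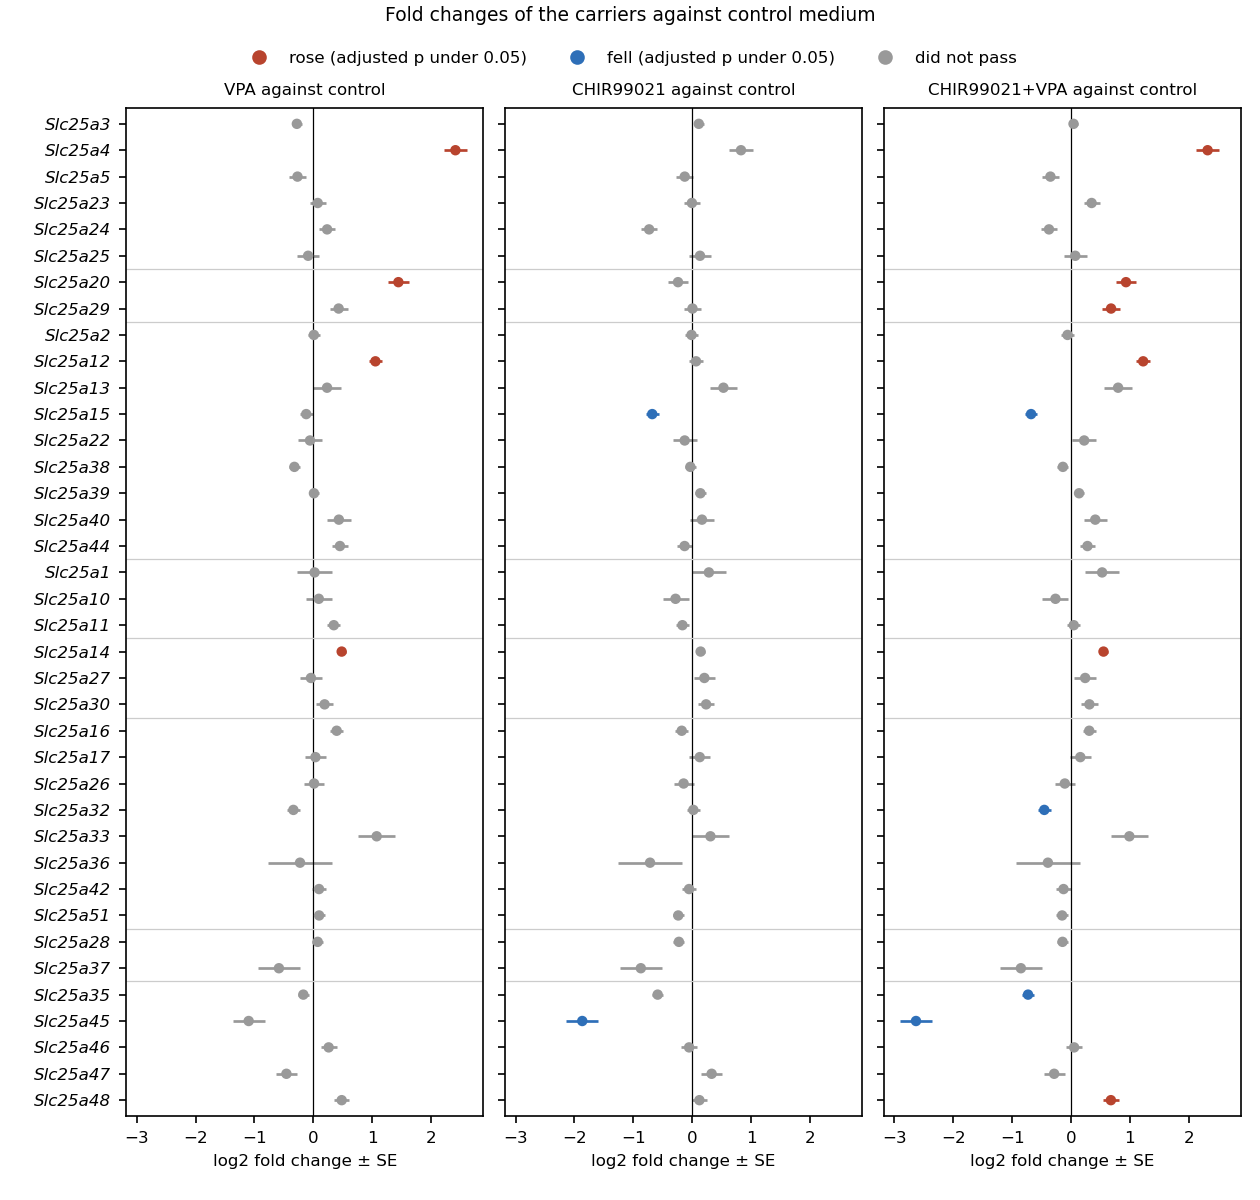
Log2 fold change (horizontal axis) of 38 of the 39 carriers against control for VPA, CHIR99021 and both compounds, with bars of 1 SE; red marks carriers that rose, blue those that fell and grey those that did not pass, and grey lines part the substrate groups. With both compounds 6 carriers rose and 4 fell.

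When VPA was added to CHIR99021, 7 carriers rose and 1 fell (20.5%, where 9.95% of all genes passed, 6.15% upward and 3.81% downward). They were Slc25a4 (2.81-fold, log2 1.49 ± 0.20, adjusted p = 0.0088), Slc25a20, Slc25a12, Slc25a29, Slc25a48, Slc25a16 and Slc25a14 (0.41 ± 0.08, adjusted p = 0.0284, lost under 11 of 18 alternatives), with Slc25a32 falling. Without Slc25a48, selected through the arrays with VPA, 6 rose. On log ratios centred on each array's median 3 rose and none fell, where 880 of all genes rose and 242 fell. In a fit of these 4 arrays by themselves 2 passed, where 287 of all genes did. The line as a block added Slc25a33 (0.68, adjusted p = 0.0396) and Slc25a44 (0.41, adjusted p = 0.0491) upward and Slc25a47 (-0.62, adjusted p = 0.0242) downward, where 17.7% of all genes passed with the block (10.3% upward, 7.48% downward). When CHIR99021 was added to VPA none of the 39 passed (1.11% of all genes did, 0.0881% upward and 1.02% downward), and 9 carriers and 2706 of all genes had an unadjusted p under 0.05. With the line as a block Slc25a35 (-0.56, adjusted p = 0.0327), Slc25a45 (adjusted p = 0.0242) and Slc25a15 (-0.56, adjusted p = 0.0394) fell in that comparison, where 2.58% of all genes fell. The departure from additivity, the effect of both compounds minus the sum of the single effects, passed for no carrier and for no gene at all (0%). At an unadjusted p under 0.05 there were 1 of the 39 carriers and 506 of the 19287 genes, about the same share. That carrier was Slc25a4 (-0.92 ± 0.28, which did not pass after adjustment), with -0.92 in line 1 and -0.93 in line 2. Its 95% interval without adjustment was -1.60 to -0.25. Slc25a4 was picked from the 39 by this p, so the interval is no test of a departure from additivity.

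The carriers differed in how far the 2 lines agreed. The median SD between lines over the carriers was 0.186 with VPA, 0.0942 with CHIR99021, 0.123 with both compounds and 0.0497 on the control arrays. Over all genes it was 0.125, 0.0946, 0.127 and 0.0545. On the VPA arrays the carriers thus spread more between lines than the median gene, with Slc25a36 at an SD of 1.22 and Slc25a37 at 0.64, while Slc25a4 was at 0.0058.

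Of 23 measured genes that import carriers into the inner membrane or move other solutes across it, none passed with VPA or CHIR99021. With both compounds Sfxn2 (0.77 ± 0.15), Tomm22 (0.52 ± 0.10) and Tomm20 (0.43 ± 0.10) rose. Their medians were 0.12 with VPA, 0.04 with CHIR99021 and 0.17 with both for the whole list of 23. Of all genes 6.54% rose and 4.2% fell with VPA, 1.06% passed with CHIR99021, and 8.41% rose and 7.1% fell with both. With the line as a block 2 rose and 1 fell with VPA, and 5 rose and 1 fell with both compounds. Sfxn2 encodes a sideroflexin, while Tomm22 and Tomm20 encode subunits of the outer membrane import receptor. Of 14 genes that report on mitochondrial content and biogenesis, Polg2, the accessory subunit of the mitochondrial DNA polymerase, fell with VPA (-0.79 ± 0.17, adjusted p = 0.0326) and with both compounds (-1.11 ± 0.17, adjusted p = 0.00767). Gabpa, an ETS factor, fell with both (-0.57 ± 0.14, adjusted p = 0.0429), and the list medians were -0.03 with VPA, -0.05 with CHIR99021 and -0.12 with both. With the line as a block 2 of these 14 rose and 1 fell with VPA, 2 fell with CHIR99021, and 1 rose and 4 fell with both. Of all genes with the block, 10.8% rose and 8.48% fell with VPA and 2.46% fell with CHIR99021. With both compounds 13.3% of all genes rose and 11.8% fell in that fit.

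Cell type markers moved with the treatments. Of 15 enterocyte markers 3 fell with VPA, 4 with CHIR99021 and 9 with both compounds, and none rose, where 4.2%, 0.949% and 7.1% of all genes fell. The list was split with VPA, with 7 positive and 8 negative changes between -2.48 and 2.27. With CHIR99021 and with both compounds all 15 changes were negative. With the line as a block 1 rose and 4 fell with VPA, 9 fell with CHIR99021 and 11 with both. Their mean log2 ratio was -0.18 and -0.36 with VPA, -1.58 and -1.83 with CHIR99021 and -2.39 and -1.78 with both, against -0.06 and -0.03 on the control arrays. Of 11 Paneth, goblet, enteroendocrine and tuft cell markers 5 fell with VPA, none with CHIR99021 and 7 with both (7, none and 10 with the block). Of 9 epithelial markers 3 fell with VPA (Krt8, Krt18 and Cdx1), 1 with CHIR99021 (Krt8), and with both 4 fell and Cdh1 rose. Of the 8 stem cell markers measured all had positive changes with CHIR99021 (median 0.47) but none passed, none passed with VPA, and Tnfrsf19 rose with both (3.67 ± 0.54, adjusted p = 0.00703). The enterocyte means were lower on the 4 arrays with CHIR99021 than on the other 4. So were Slc25a15, Slc25a24, Slc25a28, Slc25a35, Slc25a45 and Slc25a51, while Slc25a3 and Slc25a39 were higher there. Some gaps were narrow: Slc25a3 stood at 0.1545 with both compounds in line 2 and at 0.148 on the control array of line 2. How many of all genes part in this way was not counted, so these carriers are not shown to do so more often than other genes. A link of these carriers to the enterocyte markers was not tested. The part of cell composition in the carriers' values was not tested. Of the 7 fibroblast, muscle and endothelial markers measured, Col1a1 rose with VPA (0.79 ± 0.14) and with both compounds (1.02 ± 0.14), and with the block 2 rose with VPA and 2 rose and 1 fell with both. The mean log2 ratio of those 7 was 0.20 and 0.33 with VPA, -0.01 and 0.07 with CHIR99021 and 0.26 and 0.27 with both, against 0.05 and 0.16 on the control arrays. Of the 7 blood and immune markers measured Cd14 fell with VPA (-0.89 ± 0.11) and with both (-0.92 ± 0.11). The part of such cells in the carriers' values was not tested.

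**Figure D4:**
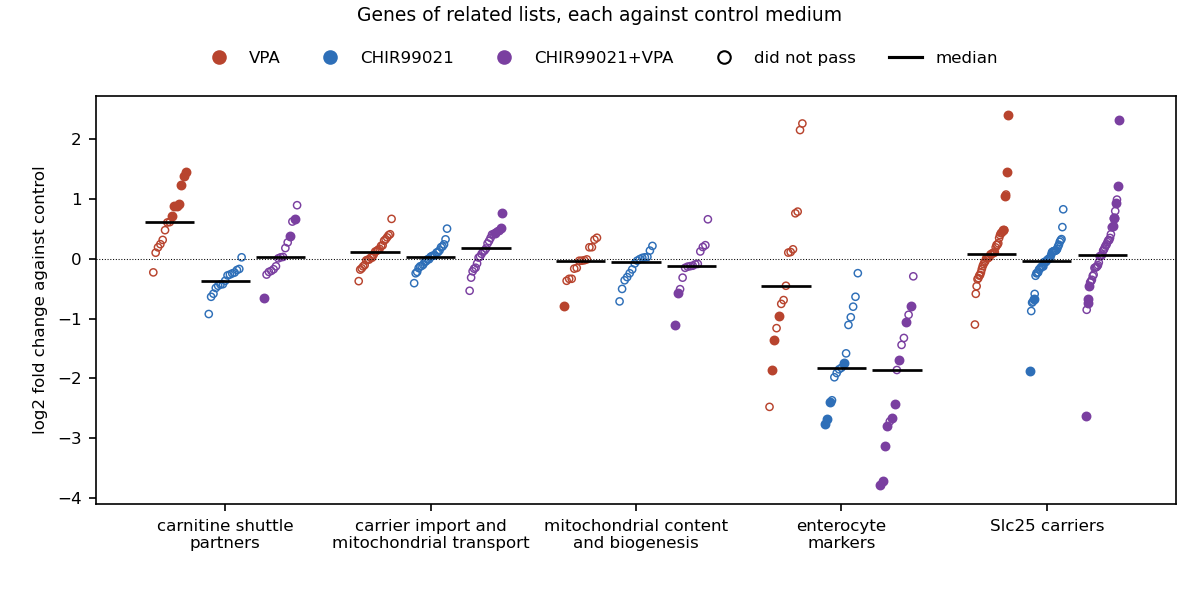
Log2 fold change against control (vertical axis) of each gene of 4 related lists and of the 39 carriers, for VPA (red), CHIR99021 (blue) and both (purple), with filled points for genes that passed and black bars for medians. The carnitine shuttle partners have a median of 0.62 with VPA and -0.37 with CHIR99021, while the carriers have medians within 0.08 of 0 in all 3. The lists were chosen with earlier results of these data known.

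Promoter windows were found for 29 of the 39 carriers, 37 windows in all, with a median of 60.0% G and C against 52.7% over all 32851 windows. At least 1 window held the GC box in 26 of 29 carriers (89.7%), against 38.2% of all 27025 genes. The ETS site was in 6 carriers (20.7%, all genes 9.93%), the E-box in 6 (20.7%, all genes 8.09%), the half-site in 3 (10.3%, all genes 18.1%), the direct repeat in 0 (0%, all genes 0.0481%) and the TCF site in 2 (6.9%, all genes 1.09%). Of the 6 carriers that rose in a comparison with control, all of which had a window, 5 held the GC box and 2, Slc25a4 and Slc25a20, the ETS site. Both carriers with a window that fell, Slc25a15 and Slc25a45, held the GC box and neither the ETS site. The differences in these shares were not tested.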

How the data were processed

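RNA of 8 organoid cultures was measured on 2-colour Agilent arrays of mouse genes, 4 media by 2 lines. Per the file headers the authors' scanner files come from Feature Extraction 10.5.1.1 and hold the intensity of each spot in both channels, background medians and a log10 ratio of Cy5 over Cy3. The series value table the authors deposited holds 19228 spots as log2 ratios, which equal the scanner's own ratio within 5e-10, red over green, with array medians of -0.028 to 0.036. The sources used here do not say how its spots were selected. Table columns without a matching sample numbered 0.

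From the scanner files, median signals were background corrected with normexp (offset 50, fitted without spots carrying an outlier flag) and normalised by loess within each array, with the 1639 control spots at weight 0. Spots flagged as outliers themselves were left out, which dropped 63 genes. Probes were named by RefSeq accession (27479 of 41174 had a symbol), kept where the Cy5 signal of at least 1 group passed the scanner's background flag on both its arrays, and reduced to the brightest per gene: 19287 genes, 14000 with a symbol, the others by accession. limma 3.58.1 in R 4.3.3 fitted 4 group means over all 8 arrays (4 residual and 2.68 prior degrees of freedom), with Benjamini-Hochberg adjustment and a threshold of 0.05. Subtracting the control arrays removes gene-specific dye bias. The number of arrays limits the precision. The script was tested on simulated data.

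Per the labels, replicate number, organoid line and slide coincide. Deviations of same-numbered arrays from their group means correlated at 0.121 to 0.753 over 6 pairs of media, and the block fit is an alternative. Alternatives were the background model, the scanner's ratio, the authors' table, median centring, no filter on dim probes, the mean of a gene's probes, the block, the compared groups by themselves, a variance trend, the treated ratio against 0 and each array left out. Leaving out spots with a flagged local background was added after seeing the data.

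Named carriers are those that passed in a comparison, Slc25a20, and 1 to 3 per substrate group by adjusted p with VPA, with Slc25a5, Slc25a13, Slc25a36, Slc25a1, Slc25a24 and a few others added after their values were seen. Members and lists were chosen with earlier results of these data known. Promoters are from RefSeq (GRCm38.p6). The arrays' own coordinates were not used. The values of 1 kept carrier are not reported here.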

Additional observations from a re-analysis of the deposited data

Results flagged for a closer look

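Slc25a36, a carrier of pyrimidine nucleotides, moved in opposite directions in the 2 organoid lines under VPA. Its log2 change against the control array of the same line was -1.02 in line 1 and 0.57 in line 2. It was picked out because both exceeded 0.5 in size with opposite signs, and with 1 array per line and medium the difference between lines was not tested.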

How the results depend on the processing

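No called value of a carrier changed sign under any alternative run. Slc25a4 with VPA and with both compounds, Slc25a12 with both compounds against control and against CHIR99021, and Slc25a45 with both compounds kept their calls under every alternative. With line as a replicate block no call was lost, and the number of carriers called was 10 with VPA (4 without the block), 5 with CHIR99021 (2 without) and 3 for both compounds against VPA (0 without). For CHIR99021 against control, 0 carriers passed with the background model fitted on all spots, where 0 of all genes did. None passed with the authors' table (209 of 13669 genes did) or with a variance trend and robust fitting (85 genes). With the scanner's log ratios 1 passed (36 genes), Slc25a48 upward. That carrier was well above background on no array of either group, so this call compares dim signals. With median centring 1 passed (154 genes), in a fit of the compared groups 6 (1083 genes) and with the treated ratio against 0 11 (4285 genes). For both compounds against CHIR99021 (8 carriers), 5 passed with the scanner's log ratios (1332 of all genes did). With median centring 3 passed (1122 genes) and in a fit of the compared groups 2 (287 genes). For both against VPA, 1 passed with the authors' table (199 of 13669 genes did) or median centring (149 genes). With the treated ratio against 0, 17 passed with VPA and 19 with both compounds, where 7023 and 7809 of all 19287 genes did. Leaving out 1 array at a time gave 1 to 7 carriers with VPA, 0 to 3 with CHIR99021, 3 to 11 with both compounds against control, 1 to 8 against CHIR99021, 0 against VPA and 0 for the departure from additivity. Over all genes, 2072 passed with VPA, but 120 and 125 without the control array of line 1 or line 2, and 3726 with the block. Median centring gave 853 genes up and 258 down with VPA, where loess gave 1262 and 810. The log2 fold change of Slc25a48 with both compounds was 3.38 on the scanner's log ratios and 1.08 after median centring, against 0.68, and over CHIR99021 it was 1.57 against 0.55. The causes were not tested. The authors' table holds 34 of the 39 carriers. With 2 arrays a group the SE of the carriers' changes against control ran from 0.08 to 0.55 on the log2 scale, and Slc25a48 was not well above background in 2 of the 4 groups.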
